A study of Mus musculus with 242 samples.

Results

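Propylene glycol mono-t-butyl ether (PGBE), a volatile glycol ether solvent, was given to female B6C3F1 mice in their chamber air at 5 concentrations, and the livers were profiled on Affymetrix Mouse430_2 arrays. The 26 arrays described here were found by the PGBE name and the air control code ACO3 in the array titles, out of 134 arrays with the same run code and 242 arrays in the series. They comprise 5 air control mice, 4 mice at 25 ppm, 4 at 75 ppm, 4 at 300 ppm, 5 at 800 ppm and 4 at 1200 ppm, 1 mouse per array. The vehicle was air in every group, and exposure by inhalation began at 5 weeks of age and lasted 6 hours a day on 5 days a week for 13 weeks, so that all mice were 18 weeks old at harvest. B6C3F1 mice are a cross of C57BL/6 and C3H strains known for liver tumours that arise with age, and the series as a whole looks for transcripts that go with later liver tumours. The labels do not state which control set belongs to PGBE. ACO3 was taken because its animal numbers are the nearest to those of the PGBE mice among the 3 air control sets of the run. The vanadium pentoxide mice lie between PGBE and ACO3 in that numbering, and 4 of the 5 ACO3 arrays give their zero dose in mg/m3, the unit of vanadium pentoxide, so ACO3 may not be the set that was run for PGBE. The other air control sets, ACO4 and ACO5 with 5 arrays each, served as alternatives.

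The liver is where most inhaled glycol ethers are broken down, by alcohol and aldehyde oxidation, by cytochrome P450 enzymes and by conjugation to glucuronic acid or sulphate. Foreign chemicals commonly raise these enzymes through nuclear receptors that act as sensors: CAR and PXR switch on the Cyp2b, Cyp2c and Cyp3a enzymes and several esterases and transferases, the aryl hydrocarbon receptor (AhR) switches on Cyp1a enzymes, PPARalpha switches on fatty acid oxidation, and NRF2 switches on antioxidant enzymes. Other sensors, the SREBP proteins, follow membrane sterol and turn on the genes of cholesterol synthesis. In long-term inhalation bioassays, PGBE has been reported to raise the number of liver tumours in mice.

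Each deposited value is a signal of a probe set, a group of short oligonucleotides for a transcript, on a linear scale on which the trimmed mean of each of these arrays is 500. Hepatocyte markers were high on all 26 arrays: the signal of Alb (serum albumin) lay between 35960 and 70290 and that of Hnf4a, a hepatocyte transcription factor, between 11750 and 22250. Median signals ran from 86.75 to 97.57 on the control arrays, 103.2 to 116.8 at 25 ppm, 86.96 to 110.7 at 75 ppm, 97.77 to 123 at 300 ppm, 94.33 to 116.6 at 800 ppm and 87.85 to 103.2 at 1200 ppm, so every 25 ppm and 300 ppm array lay above all control arrays. The median correlation of an array with the others of its group was 0.9686 to 0.9712 for controls and lower for every dosed array, with 0.9063 for replicate 4 at 300 ppm and 0.9351 for replicate 1 at 1200 ppm. RNA integrity numbers were 9.1 to 9.2 at 1200 ppm, where 1 array had none recorded, against 8.7 to 8.8 in controls. The absorbance ratio used as a measure of RNA purity was 1.65 for replicate 2 and 1.84 for replicate 4 at 1200 ppm and at least 1.89 on every other array; replicate 2 is also the array without which the count of calls at 1200 ppm below became 144. A letter r stood in the titles of 1, 2, 1, 0 and 3 arrays at 25, 75, 300, 800 and 1200 ppm and of 0 control arrays; the labels do not say what it means. The part of array signal, RNA integrity, RNA purity and the letter r in the results below was not tested beyond the alternatives named with them.

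**Figure D1:**
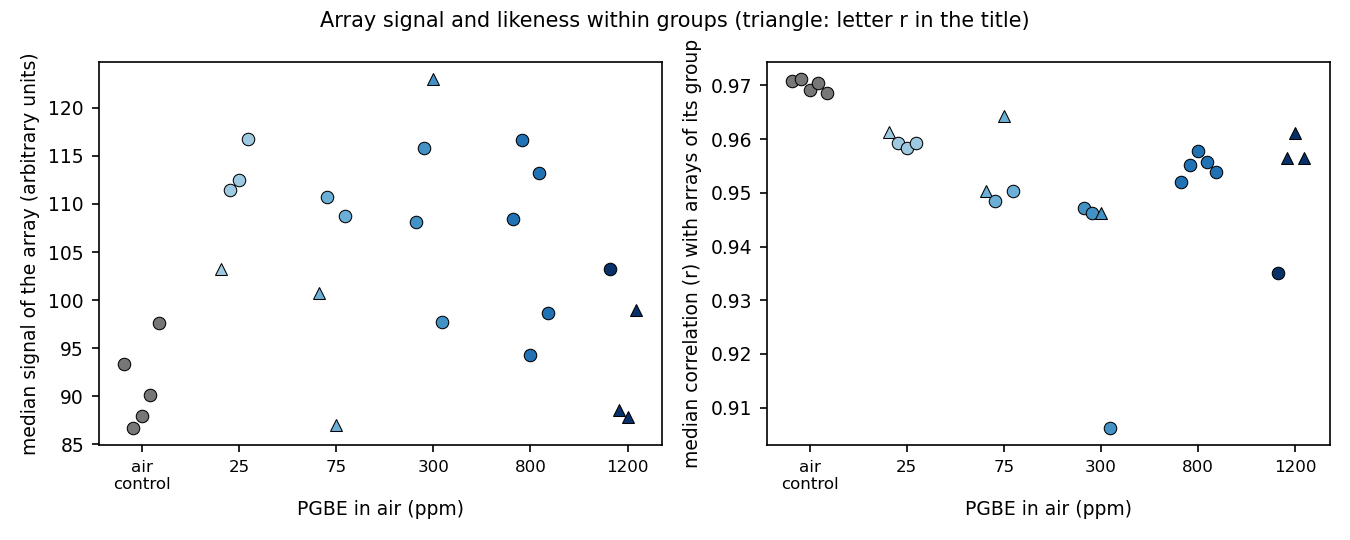
Median signal (left) and median correlation with the other arrays of the group (right) for each of the 26 arrays, with PGBE concentration in ppm along the x axis and triangles for titles with the letter r. All 5 control arrays correlated at 0.9686 or more with their group, and replicate 4 at 300 ppm stood lowest at 0.9063.

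Transcript changes were few, and their number did not climb steadily with concentration. A probe set was called when limma's moderated test, adjusted by Benjamini-Hochberg for the 45037 probe sets tested, passed 0.05 together with a fold of at least 1.5 on the log2(signal + 18.46) scale. Against the same 5 control mice, 11 probe sets were called at 25 ppm (0.0244% of those tested; 10 higher and 1 lower), 0 at 75 ppm (0%), 44 at 300 ppm (0.0977%; 39 higher and 5 lower), 14 at 800 ppm (0.0311%; 14 higher and 0 lower) and 47 at 1200 ppm (0.104%; 35 higher and 12 lower). At an unadjusted p under 0.05, limma counted 3756, 2299, 6123, 3476 and 3712 probe sets from the lowest to the highest concentration. The calls at different concentrations fell on different parts of the signal range. Of the calls, 43 of 47 at 1200 ppm were on probe sets whose mean in some group passed the run's median signal of 97.2, against 19 of 44 at 300 ppm and 4 of 11 at 25 ppm. Those groups include the dosed ones, so a probe set could pass through the dose that raised it. By mean signal over the whole run, the median called probe set stood at 22.6, 27.68, 58.97 and 678.6 at 25, 300, 800 and 1200 ppm. The calls at 300 and 1200 ppm shared 1 probe set (Zdhhc24), those at 25 and 300 ppm shared 1 (Otof), and those at 800 and 1200 ppm shared 5.

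A trend over the ranks of control and the 5 concentrations called 51 probe sets (0.113%), 44 rising and 7 falling with concentration, of which 30 were also called at 1200 ppm and 7 at 800 ppm. Among the 44 rising probe sets the median log2 difference from controls was -0.01 at 25 ppm, 0.05 at 75 ppm, 0.21 at 300 ppm, 0.66 at 800 ppm and 1.10 at 1200 ppm. For the 7 falling ones it was -0.01, -0.15, -0.26, -0.44 and -0.90 in the same order. The 39 probe sets called higher at 300 ppm had medians of 0.51, 0.35, 1.07, 0.40 and 0.31, so their level was highest at 300 ppm and lower again above it. The 10 called higher at 25 ppm had a median of 1.23 there and 0.17 at 1200 ppm. These medians describe probe sets chosen for their values in the same comparisons, all of which share the control arrays. A trend over the ranks of the 5 concentrations alone, which uses no control array, called 52 probe sets (0.115%; 40 rising and 12 falling), 37 of them shared with the trend that includes controls. An F test for any difference over the 6 groups called 94 probe sets (0.209%).

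**Figure D2:**
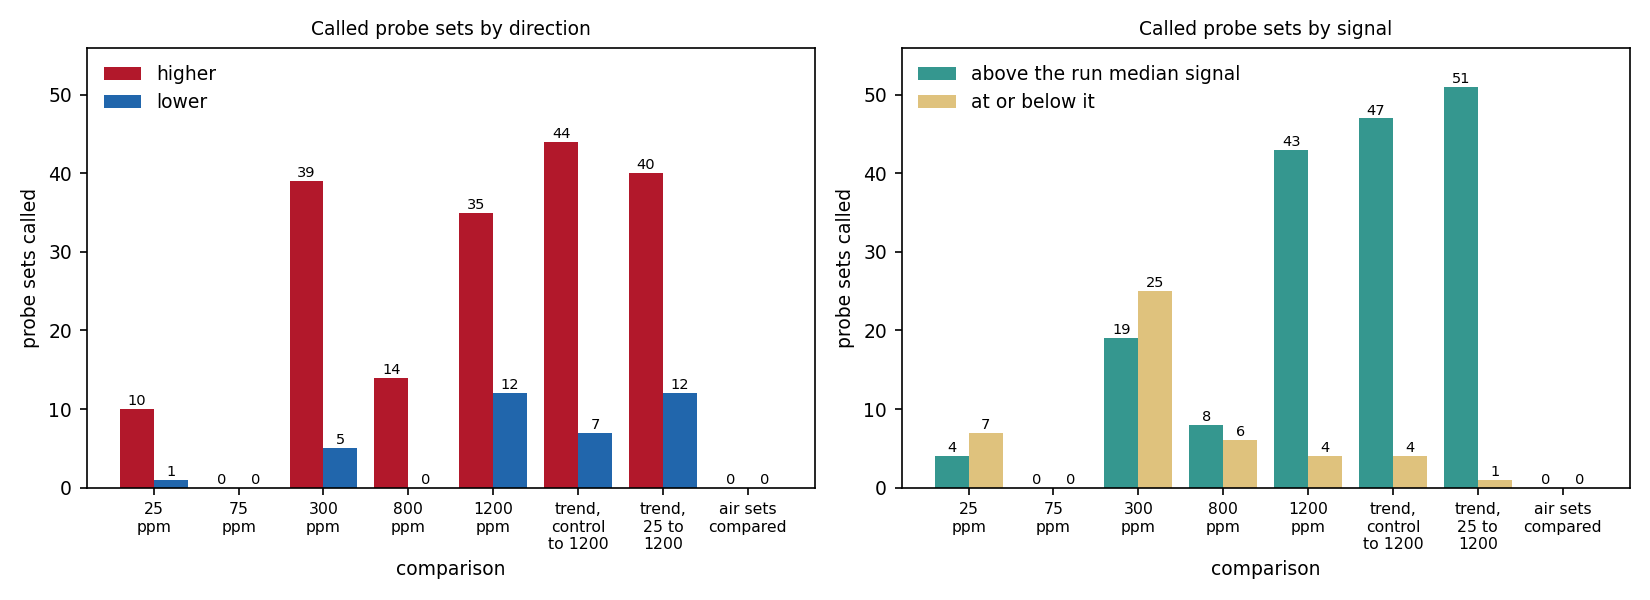
Number of probe sets called at each PGBE concentration, in the trends and between ACO3 and the mean of the other 2 air control sets (y axis), split by direction in the left panel and by signal above or below the run's median in the right panel. The 44 calls at 300 ppm include 19 bright probe sets and the 47 calls at 1200 ppm include 43.

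The counts rested on few mice. Leaving out 1 array at a time moved the count at 1200 ppm from 47 to 19 without replicate 1, 144 without replicate 2, 28 without replicate 3 and 72 without replicate 4 of that dose, and to 21, 18 and 23 without control replicates 2, 3 and 4. At 300 ppm the count of 44 became 105, 12 and 215 without replicates 1, 2 and 3 of that dose; leaving out control replicates 1 to 5 in turn made it 23, 7, 4, 4 and 85. At 800 ppm it became 7, 4 and 8 on leaving out replicates 1, 2 and 4 of that dose, and 8, 7, 5 and 8 on leaving out control replicates 1, 2, 4 and 5. At 25 ppm it became 51, 4, 5 and 3 without replicates 1 to 4, and 7, 6, 5, 1 and 2 without control replicates 1 to 5. The trend's 51 became 28 without replicate 1 and 141 without replicate 2 at 1200 ppm. The trend within dosed mice fell from 52 to 27 without replicate 3 at 25 ppm and to 31 without replicate 1 at 1200 ppm. Fitted on the 26 arrays alone, without the spread of the run's other groups, the counts were 1, 0, 0, 3 and 7 from 25 to 1200 ppm and 18 for the trend. Every named call that was lost in any alternative, apart from the trend call of Cyp2b13, was lost in this fit or in a fit of its dose and the controls by themselves, so these small fits are not named again at each gene.

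Cytochrome P450 enzymes of the Cyp2c family and a carboxylesterase, all counted among CAR and PXR targets, rose at the upper concentrations. Cyp2c55, Cyp2c54, Cyp2b13 and Ces2a rose at 1200 ppm, and Cyp2c55, Cyp2c29 and Ces2a rose at 800 ppm. Cyp2c55, which oxidises arachidonic and linoleic acid, gave signals of 556.8, 394.9, 463.6, 512.4 and 594.8 in the controls, 587.3, 604.3, 434.6 and 725 at 25 ppm, 507.3, 807.5, 345.1 and 406 at 75 ppm, and 646.9, 460.5, 674.6 and 535.2 at 300 ppm. At 800 ppm they were 1549, 1384, 1838, 1794 and 1439, and at 1200 ppm 4543, 4738, 4149 and 2463. The lower 3 concentrations overlapped the controls, every 800 ppm mouse lay above every control mouse, and every 1200 ppm mouse lay above every 800 ppm mouse. The log2 change was 1.64 ± 0.29 at 800 ppm (SE, n = 5 and 5; adjusted p = 0.0023) and 2.90 ± 0.31 at 1200 ppm (n = 4 and 5; adjusted p = 5.1e-11), a fold of 7.47. Both calls and the trend call held in every alternative tried, with the log2 change at 1200 ppm between 2.71 and 3.22.

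Ces2a, a carboxylesterase that hydrolyses drug and lipid esters, started from a high level. Its signals were 20220, 19290, 21340, 18240 and 17370 in controls, 18200, 18470, 18250 and 18740 at 25 ppm, 17350, 22380, 19640 and 22000 at 75 ppm, and 22160, 22360, 19350 and 34690 at 300 ppm. They were 40010, 38210, 36410, 30420 and 33120 at 800 ppm and 46850, 32320, 48430 and 43700 at 1200 ppm. Both upper groups lay wholly above the controls, and at 300 ppm only replicate 4 reached the level of the 800 ppm mice. The mean was 42830 ± 7272 at 1200 ppm (SD, n = 4) against 19290 ± 1570 in controls (SD, n = 5), a log2 change of 1.14 ± 0.14 (SE; adjusted p = 2e-08). Cyp2c54, another arachidonic acid oxidising enzyme, averaged 38170 ± 4882 at 1200 ppm (SD, n = 4) and 24980 ± 2416 in controls (SD, n = 5), a log2 change of 0.61 (adjusted p = 0.0023). Its 800 ppm arrays, at 33380 to 40290, also lay above all controls, but the fold of 1.48 there stayed under the call's limit. The trend calls of Ces2a and Cyp2c54 held in every alternative. The 800 ppm call of Ces2a was lost only in both small fits, and its 1200 ppm call only in the fit of that dose and controls by themselves. The 1200 ppm call of Cyp2c54 was also lost without replicate 1 or 3 at 1200 ppm or control replicate 3 or 5, and with ACO4 as the controls. Cyp2c29, an abundant liver P450 enzyme, was called at 800 ppm (log2 change 0.59, adjusted p = 0.029) and in the trend (0.65), with 0.48 and an adjusted p of 0.15 at 1200 ppm, where replicate 2 at 44060 lay among the controls. Its 800 ppm call was lost without replicate 1, 2 or 3 of that dose or control replicate 2, 4 or 5, after quantile normalisation, and with ACO4, ACO5 or the 3 control sets pooled. Its trend call was lost after quantile normalisation and with ACO4. The mouse Cyp2c genes are close copies of each other, so a probe set of 1 member may also report another.

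Cyp2b13, a steroid hydroxylase of female mouse liver, gave 24280, 18210, 23380 and 18500 at 1200 ppm against 9864, 9587, 8826, 9781 and 9501 in controls, with no overlap (log2 change 1.14, adjusted p = 0.025). At 800 ppm it ranged from 9226 to 20330 and was not called. The 1200 ppm call was lost without replicate 1 or 3 at 1200 ppm or control replicate 2, 3 or 4, and with ACO5. Cyp2b10, the usual marker of CAR activity, gave 9102, 7065, 6090 and 4063 at 1200 ppm and 4779, 2147, 2743, 3142 and 4818 in controls; its log2 change of 0.91 ± 0.34 had an adjusted p of 0.41, and its other probe sets gave 0.98 and 1.06, also uncalled. At 25 ppm it ranged from 5156 to 6822, above all controls, with a log2 change of 0.82 and an adjusted p of 0.48. Cyp3a11, the usual marker of PXR, differed by 0.03 ± 0.13 at 1200 ppm (adjusted p = 0.98), with 45590 to 60620 against 39910 to 61670 in controls.

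Of the 30 CAR and PXR targets on the list, 23 were measured. At 1200 ppm 4 rose (Cyp2c55, Ces2a, Cyp2c54 and Cyp2b13) and 0 fell, at 800 ppm 3 rose, and at 25, 75 and 300 ppm 0 passed the test. In the trend 5 rose, and 6 rose in the trend within dosed mice, which added Cyp2c50. Over all 18193 genes 2 rose and 1 fell at 25 ppm, 0 and 0 at 75 ppm, 21 and 4 at 300 ppm, and 6 and 0 at 800 ppm. Of these genes 29 rose and 5 fell in the trend. Within dosed mice 33 rose and 8 fell. The list's median log2 change was 0.37 at 1200 ppm beside 0.02 over all 18193 genes, of which 20 rose and 7 fell. Its mean level, as the average log2(signal + 18.46) of its genes, was 11.71 to 11.97 in control mice, 11.54 to 12.25 at 300 ppm, 11.99 to 12.29 at 800 ppm and 12.10 to 12.24 at 1200 ppm, so both upper groups lay above all controls. Of 29 measured NRF2 targets 0 passed the test at any dose, with a median of 0.18 at 1200 ppm. Gstm3, a glutathione transferase that NRF2 and CAR both raise, had 17500, 9926, 11230 and 6163 at 1200 ppm against 4194 to 5480 in controls, without overlap, and missed the call with a log2 change of 1.10 and an adjusted p of 0.074. Its other probe set, with a control mean of 1206, changed by 0.86 at 1200 ppm (limma adjusted p = 0.33). Gsta2 had a log2 change of 1.34 there (adjusted p = 0.15). Gstt3, a theta-class glutathione transferase, was called at 1200 ppm (0.73, adjusted p = 0.023) and in the trend (0.62), with 5971 to 11300 at 1200 ppm against 4294 to 6224 in controls; the 1200 ppm call was lost without replicate 1 or 3 at that dose or control replicate 2, 3 or 4, and with ACO4. The trend call of Gstt3 was lost without replicate 1 at 1200 ppm, with ACO4, with ACO5, with the 3 control sets pooled and on a log10 dose scale.

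The promoter sequences of Cyp2c50 and Ces2a are shown because both genes move with the Cyp2c group and have a RefSeq entry (build GRCm38.p6) for the 250 bases before the annotated start. Capitals mark matches, on either strand, to a CCAAT box (CCAAT) or to AGTTCA, a common recognition sequence of CAR, PXR and related receptors. Cyp2c50 lies on the plus strand and its window is chr19:40089429-40089678, with a CCAAT box 212 and 12 bases before the start and an AGTTCA match at 35 bases. Ces2a lies on the plus strand, with the window chr8:104733753-104734002 and CCAAT boxes at 231 and 58 bases.
Cyp2c50: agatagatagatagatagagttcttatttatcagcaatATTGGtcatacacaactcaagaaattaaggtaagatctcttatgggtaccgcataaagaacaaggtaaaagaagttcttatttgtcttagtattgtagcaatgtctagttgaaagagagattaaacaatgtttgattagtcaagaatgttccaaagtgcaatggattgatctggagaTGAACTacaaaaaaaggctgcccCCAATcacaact
Ces2a: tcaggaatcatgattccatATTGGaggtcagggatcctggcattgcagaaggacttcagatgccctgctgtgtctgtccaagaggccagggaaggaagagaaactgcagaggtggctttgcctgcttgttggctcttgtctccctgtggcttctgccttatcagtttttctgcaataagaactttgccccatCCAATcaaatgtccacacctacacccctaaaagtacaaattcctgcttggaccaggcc
AGTTCA occurred in 11.8% and the CCAAT box in 33.8% of all 32851 such windows. By gene, 3 of the 21 CAR and PXR targets with a window held AGTTCA, 14.3%, against 13.4% of 27025 genes. These are letter matches in a short window and say nothing about binding.

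**Figure D3:**
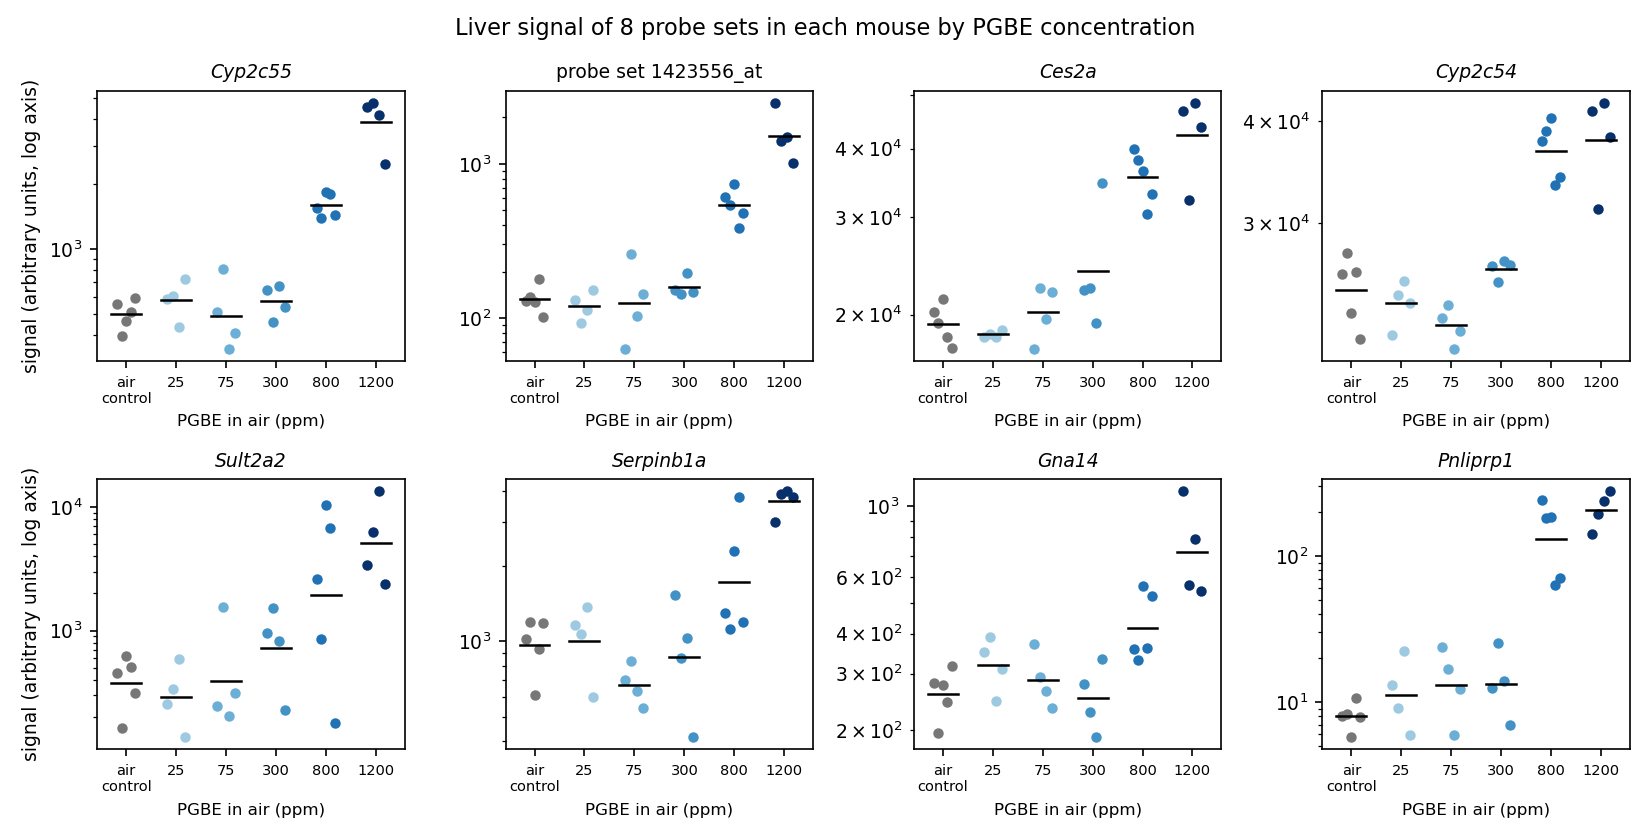
Signal (log axis, arbitrary units) of 8 probe sets in every mouse against PGBE concentration in ppm, with controls at the left, 1 point per mouse and a line at the group's geometric mean. Cyp2c55, Ces2a and probe set 1423556_at separate from the controls at 800 and 1200 ppm and overlap them at the 3 lower concentrations.

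The lowest adjusted p at 800 ppm, at 1200 ppm and in the trend belonged to probe set 1423556_at, which has no gene symbol in the annotation used here. Its signals were 129.8, 137.7, 126.8, 178.8 and 101.5 in controls, 131.1, 93.06, 113.4 and 152.9 at 25 ppm, 63.33, 260.9, 102.8 and 142.3 at 75 ppm, and 152.3, 143.4, 195.8 and 148.6 at 300 ppm. They were 607, 539.6, 743.2, 386.1 and 476.6 at 800 ppm and 2489, 1403, 1489 and 1011 at 1200 ppm. As for Cyp2c55, the groups at 800 and 1200 ppm did not overlap with each other or with any lower group. The log2 change was 1.88 ± 0.24 at 800 ppm (adjusted p = 1.8e-07) and 3.34 ± 0.25 at 1200 ppm (adjusted p = 2.8e-19), a fold of 10.1. The probe set was added to the text after its values were seen.

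Sult2a2, a sulphotransferase for bile acids and steroids that is high in female mouse liver, had the largest fitted trend of all called probe sets with a symbol. Its signals were 456.7, 164.4, 623.1, 510.9 and 313.4 in controls, 257.4, 339.3, 589 and 137.8 at 25 ppm, 245.5, 1550, 203.2 and 314.2 at 75 ppm, and 964.2, 1517, 830.1 and 228.8 at 300 ppm. At 800 ppm they were 2607, 863.1, 10420, 6751 and 180.9, and at 1200 ppm 3424, 6323, 13390 and 2378. The 1200 ppm mice all lay above the controls, whereas the 800 ppm mice spanned from below the control mean to a value that only 1 mouse at 1200 ppm exceeded. The log2 change was 3.70 ± 0.80 at 1200 ppm (adjusted p = 0.021) and 2.34 ± 0.75 at 800 ppm (adjusted p = 0.36), and the trend was 3.92 ± 0.68 (adjusted p = 0.00024). These SEs come from the whole run and do not carry the wide spread of the 800 ppm mice. The trend call held in every alternative, while the 1200 ppm call was lost without replicate 3 of that dose or control replicate 2, and without the letter r arrays. Sult2a genes are near-identical copies, so the signal may come from more than 1 of them. Of 29 measured conjugation enzymes, 2 rose at 1200 ppm (Sult2a2 and Gstt3) and 0 fell, with a list median of 0.05.

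Other called genes belonged to none of the pathway lists. Serpinb1a, an inhibitor of neutrophil proteases, gave 3012, 3874, 3977 and 3791 at 1200 ppm against 1027, 1197, 610.4, 930.4 and 1188 in controls, with no overlap (log2 change 1.90 ± 0.33, adjusted p = 0.00046). At 800 ppm it gave 1302, 1120, 2289, 3791 and 1195, so 2 of 5 mice lay well above the others, and the change of 0.83 was not called. Its other probe set was also called at 1200 ppm, at 1.31. Gna14, a G protein subunit, gave 1112, 567.3, 789.3 and 541.7 at 1200 ppm and 281, 196.5, 276.3, 244 and 316.4 in controls (log2 change 1.41 ± 0.18, adjusted p = 6.3e-08). Its 800 ppm values of 331.6 to 563.5 lay above all controls, and the change of 0.65 there had an adjusted p of 0.22. The transcript 1700067K01Rik gave 620, 397.7, 375.3 and 428.9 at 1200 ppm and 129.9 to 193.2 in controls (1.42, adjusted p = 0.00071). The transcript 1810053B23Rik gave 82.63, 255.2, 134.9 and 28.56 at 1200 ppm and 4.39 to 15.29 in controls (2.17, adjusted p = 0.0081); at 800 ppm it ran from 13.87 to 131.1. The trend calls of these 4 held in every alternative. The 1200 ppm call of Serpinb1a was lost without the letter r arrays, in the fit of the 26 arrays alone and in the fit of 1200 ppm and controls by themselves. That of 1810053B23Rik was lost without replicate 2 or 3 of that dose, without the letter r arrays and with ACO4. That of 1700067K01Rik was lost only in both small fits, and that of Gna14 only in the fit of 1200 ppm and controls by themselves.

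Apoa4 and Hamp2 were also called higher at 1200 ppm. Apoa4, an apolipoprotein of triglyceride-rich particles, gave 21010, 14790, 23320 and 21130 at 1200 ppm against 12030, 13200, 12260, 10120 and 9165 in controls, without overlap (log2 change 0.81, adjusted p = 0.027). Its other probe set changed by 1.11 and was called too. The trend call of Apoa4 (0.79) held in every alternative, but its 1200 ppm call was lost without replicate 1, 3 or 4 of that dose or control replicate 3, 4 or 5, without the letter r arrays and with the letter r as covariate. Hamp2, a relative of the iron hormone hepcidin, gave 59770, 41230, 49530 and 47720 at 1200 ppm against 20860 to 29080 in controls, and all 800 ppm mice, at 30120 to 49750, lay above the controls. Its log2 change was 1.01 at 1200 ppm (adjusted p = 0.025), lost without replicate 1 or 3 of that dose or control replicate 2 or 3, and with ACO5. The other Hamp2 probe set, with a control mean of only 32.23, changed by 0.17 at 1200 ppm and was not called. Hamp2 was the only one of 26 measured acute phase genes that passed the test; 5 of the 26 lay above 0 and the list's median was -0.07. Saa1, the serum amyloid protein that reacts most to inflammation, was 1615 to 3118 at 1200 ppm and varied from 1820 to 64760 among the controls (log2 change -2.27, adjusted p = 0.14).

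Pnliprp1, a lipase-related protein best known from the exocrine pancreas, was near the floor in 17 mice and well above it in the other 9. Its signals were 8.07, 8.32, 5.74, 10.68 and 7.87 in controls, 13.02, 9.16, 22.31 and 5.91 at 25 ppm, 23.72, 16.86, 5.92 and 12.17 at 75 ppm, and 12.5, 25.25, 13.95 and 6.99 at 300 ppm. They were 241.2, 182.4, 185.2, 63.7 and 70.42 at 800 ppm and 140.3, 193, 239 and 277.1 at 1200 ppm. Every mouse at 800 or 1200 ppm thus exceeded every mouse at a lower concentration. The log2 change was 2.50 ± 0.35 at 800 ppm (adjusted p = 2.7e-06) and 3.08 ± 0.37 at 1200 ppm (adjusted p = 5.9e-09). With control signals under the added constant of 18.46, its size depends on that constant: it ran from 1.78 to 4.06 at 1200 ppm over the alternatives, all called. The defining pancreas markers overlapped the controls. Cela2a, a pancreatic elastase, was 11.05 to 179.6 at 1200 ppm against 60.3 to 94.09 in controls, and Prss2, a trypsinogen, was 54.22 to 186.1 against 74.23 to 229.6. Of the 16 measured pancreas genes Pnliprp1 was the only one called at 800 or 1200 ppm. The list's mean level was 5.979 to 6.46 in controls, 6.354 to 6.535 at 25 ppm, 6.292 to 6.795 at 75 ppm, 6.536 to 6.765 at 300 ppm, 6.575 to 6.841 at 800 ppm and 6.398 to 6.708 at 1200 ppm. The groups at 300 and 800 ppm thus lay wholly above the controls, although Pnliprp1 was near the floor at 300 ppm, and the 1200 ppm group overlapped them. The part of pancreas RNA in the Pnliprp1 calls was not tested.

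Some genes of cholesterol synthesis rose over the dose range without passing the test at any single concentration. Of 25 genes on the list 20 were measured. In the trend that includes controls 4 rose and 0 fell: Fdft1, which makes squalene (0.72 ± 0.15, adjusted p = 0.01), Msmo1, a sterol methyl oxidase (0.94 ± 0.22, adjusted p = 0.029), Nsdhl, a sterol dehydrogenase (0.63 ± 0.14, adjusted p = 0.026), and Tm7sf2, a sterol reductase (0.69 ± 0.15, adjusted p = 0.013). In the trend within dosed mice 7 rose, adding Sqle, the squalene epoxidase (1.37, adjusted p = 0.023), Fdps, which makes farnesyl diphosphate (1.11), and Cyp51, the lanosterol demethylase (0.76). Over all 18193 genes 29 rose and 5 fell in the trend that includes controls, and 33 rose and 8 fell within dosed mice. The list's median log2 difference from controls was -0.25 at 25 ppm, 0.02 at 75 ppm, -0.16 at 300 ppm, 0.29 at 800 ppm and 0.50 at 1200 ppm, beside 0.05, 0.04, 0.08, 0.05 and 0.02 over all genes.

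Msmo1 gave 1780, 2860, 3407, 2550 and 2763 in controls, 2091, 1920, 1593 and 1531 at 25 ppm, 1998, 2943, 3053 and 2191 at 75 ppm, 2090, 2573, 2185 and 1226 at 300 ppm, 4269, 4753, 5117, 2744 and 2208 at 800 ppm, and 4755, 6083, 5991 and 2272 at 1200 ppm. Replicate 4 at 1200 ppm and replicates 4 and 5 at 800 ppm lay among the controls, and the others of both groups lay above them. Fdft1 overlapped the controls through the same replicate 4, with 7837, 5656, 7743 and 4175 at 1200 ppm against 3023 to 4530 in controls. Tm7sf2 gave 18540, 11730, 17600 and 14720 at 1200 ppm against 8211 to 11510, without overlap. The list's mean level was 10.95 to 11.37 in controls, 10.62 to 11.06 at 25 ppm, 11.15 to 11.73 at 800 ppm and 11.03 to 11.91 at 1200 ppm, so the groups overlapped at both ends. All 4 trend calls were lost without replicate 1 or replicate 3 at 1200 ppm, and in the fit of the 26 arrays alone. That of Nsdhl was also lost without replicate 3 at 25 ppm, replicate 3 at 800 ppm or control replicate 4 or 5 and on a log10 dose scale, and that of Msmo1 without replicate 2 at 1200 ppm, replicate 3 or 4 at 25 ppm, replicate 1, 2 or 3 at 800 ppm or control replicate 1 or 4.

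The start regions of Msmo1, Nsdhl and Tm7sf2 are shown with that of Hmgcs1, the list's cytosolic synthase of HMG-CoA, because the promoters of this pathway are known to pair a sterol element, bound by SREBP, with CCAAT boxes, bound by NF-Y. Windows are the 250 bases before the start, from RefSeq on GRCm38.p6, and capitals mark TCACNCCAC (sterol element) and CCAAT on either strand. Msmo1 is on the minus strand at chr8:64733579-64733828, with CCAAT boxes 160, 96 and 55 bases before the start. Nsdhl is on the plus strand at chrX:72918271-72918520, with boxes at 109 and 20 bases. Tm7sf2 is on the minus strand at chr19:6067851-6068100, with a box at 47 bases. Hmgcs1 is on the plus strand at chr13:119690101-119690350, with a sterol element at 137 bases and boxes at 237, 176 and 45.
Msmo1: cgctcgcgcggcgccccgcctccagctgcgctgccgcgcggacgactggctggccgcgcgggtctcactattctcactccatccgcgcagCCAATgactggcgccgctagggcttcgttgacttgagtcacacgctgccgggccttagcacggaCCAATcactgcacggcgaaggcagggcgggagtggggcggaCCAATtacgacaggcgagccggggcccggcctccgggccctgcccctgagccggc
Nsdhl: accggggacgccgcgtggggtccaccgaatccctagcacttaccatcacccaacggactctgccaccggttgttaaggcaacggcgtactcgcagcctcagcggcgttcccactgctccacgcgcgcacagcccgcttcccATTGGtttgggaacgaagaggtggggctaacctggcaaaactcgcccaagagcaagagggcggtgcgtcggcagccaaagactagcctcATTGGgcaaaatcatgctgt
Tm7sf2: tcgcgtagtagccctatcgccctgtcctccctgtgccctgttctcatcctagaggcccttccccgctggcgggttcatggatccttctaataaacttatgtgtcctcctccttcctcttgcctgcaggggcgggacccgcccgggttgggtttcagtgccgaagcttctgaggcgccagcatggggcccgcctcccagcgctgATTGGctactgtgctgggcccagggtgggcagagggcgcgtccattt
Hmgcs1: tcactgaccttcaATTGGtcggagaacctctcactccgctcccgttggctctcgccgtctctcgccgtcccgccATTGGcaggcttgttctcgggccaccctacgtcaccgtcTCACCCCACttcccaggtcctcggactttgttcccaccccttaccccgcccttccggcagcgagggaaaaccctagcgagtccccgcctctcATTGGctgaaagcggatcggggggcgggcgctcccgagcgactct
Of the 20 measured genes of the list 16 had a window, and 16 of these held a CCAAT box, against 10133 of 27025 genes (37.5%). Of the rising trend genes with a window it was 12 of 27. The sterol element was matched in 1 of the 16, against 331 of 27025 genes (1.22%), and the search allowed no other spelling.

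**Figure D4:**
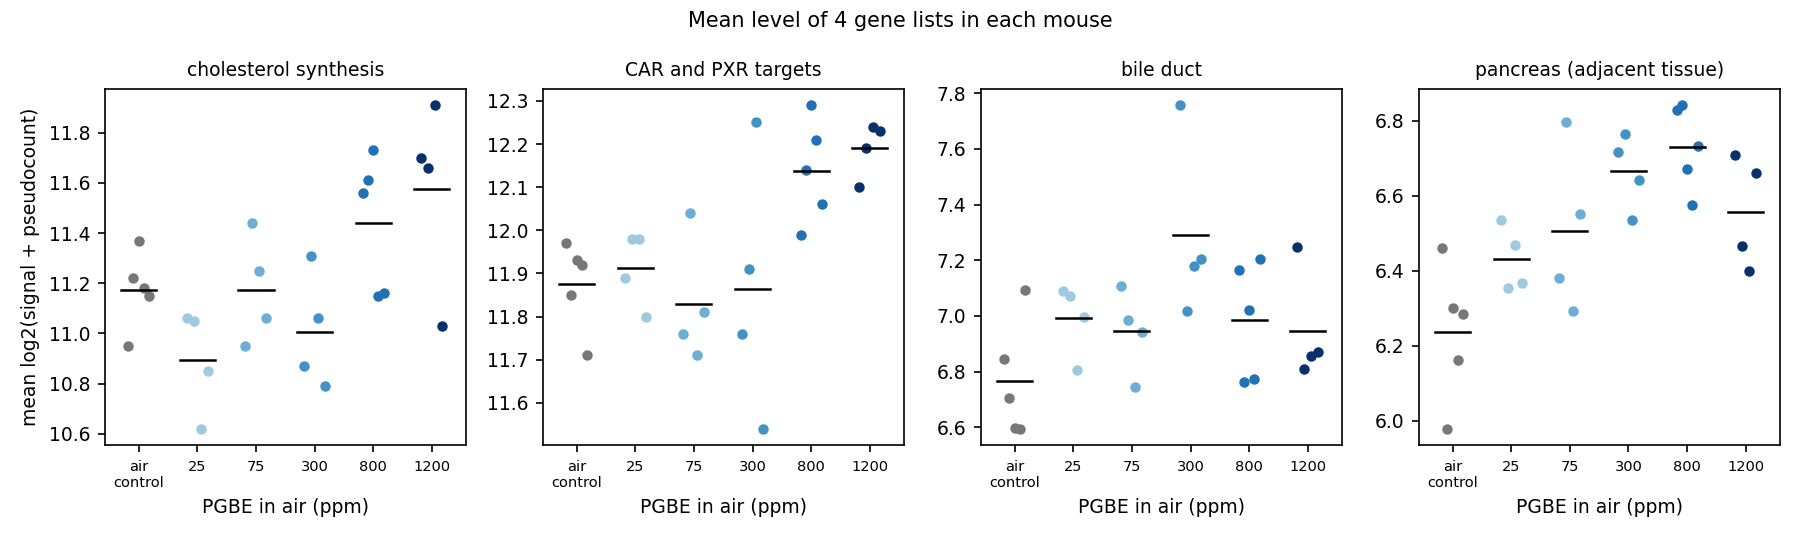
Mean log2(signal + 18.46) of the genes of 4 lists in every mouse (y axis) against PGBE concentration in ppm (x axis), with a line at the group mean. CAR and PXR targets lie above all controls at 800 and 1200 ppm, cholesterol synthesis overlaps the controls in every group, and the bile duct list has its highest mouse at 300 ppm (7.757).

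In the main fit fewer probe sets fell with concentration than rose, 7 against 44 in the trend. That balance depended on the arrays and the model. Without replicate 2 at 1200 ppm, 92 fell and 52 rose at 1200 ppm, and 75 fell and 66 rose in the trend. With the letter r as covariate, 119 fell and 127 rose at 1200 ppm, and 40 fell and 78 rose in the trend. Qpct, an enzyme that cyclises the ends of secreted peptides, gave 623.1, 653.6, 550.7, 629.5 and 564.3 in controls, 432.2, 394.3, 491, 519.6 and 385.6 at 800 ppm and 201.3, 351.5, 387.1 and 350.6 at 1200 ppm, where both dosed groups lay below all controls. Its log2 change was -0.90 ± 0.21 at 1200 ppm (adjusted p = 0.04) and its trend -0.84 (adjusted p = 0.01). Fam25c, a small protein of unsettled role, gave 3093, 2889, 4110 and 3904 at 1200 ppm against 6420, 7600, 8926, 6609 and 4034 in controls, where replicate 5 overlapped the dosed mice (log2 change -0.91, adjusted p = 0.023; trend -0.88). Rdh9, a retinol dehydrogenase, gave 2091, 4879, 3356 and 4648 at 1200 ppm against 6028, 8094, 6861, 6390 and 4780 in controls (-0.83, adjusted p = 0.022; trend -0.78). Without replicate 1 at 1200 ppm the 1200 ppm calls of Qpct, Fam25c and Rdh9 and the trend calls of Qpct and Rdh9 were lost. The 1200 ppm call of Qpct was also lost without any 1 of the 5 control replicates, that of Fam25c without replicate 2 at 1200 ppm or control replicate 2, 3 or 4 and with ACO4, and that of Rdh9 without replicate 3 at 1200 ppm or control replicate 2, 3 or 4. The trend of Fam25c was lost only in the fit of the 26 arrays alone. The largest fall at 1200 ppm was a Cux2 probe set at -2.39 (adjusted p = 0.039), whose call was lost without replicate 1 or 3 at 1200 ppm or control replicate 1, 2, 3 or 4, with ACO5 or with the higher pseudocount; other Cux2 probe sets gave 0.27 and -0.91 and were not called. Cux2 is a female-biased repressor of male liver genes.

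**Figure D5:**
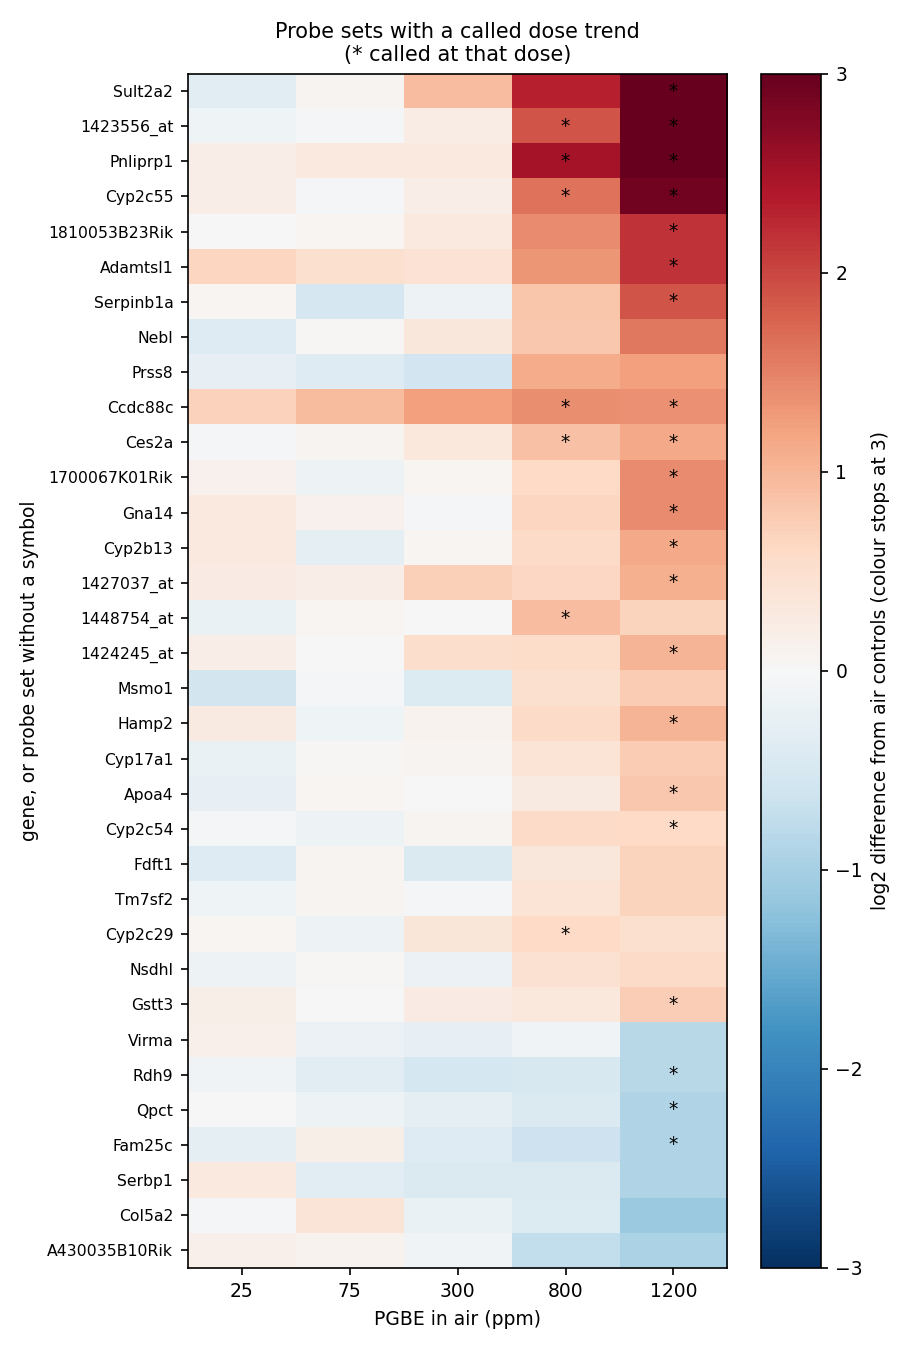
Log2 difference from air controls at each PGBE concentration in ppm (x axis) for the probe sets with a called trend (rows), with colour limited at 3 and asterisks where that dose was called. Most rows are near 0 at 25, 75 and 300 ppm and move at 800 and 1200 ppm.

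Lists for other liver programmes gave few or no calls at any concentration or in the trend. At 1200 ppm the medians were -0.04 for 7 AhR targets, 0.03 for 30 PPARalpha targets, 0.02 for 26 p53 targets, 0.15 for 35 cell cycle genes, 0.32 for 27 genes of fatty acid synthesis and lipid storage, and 0.01 for 23 enzymes of alcohol and aldehyde oxidation, with 0 members called in each. Over all 18193 genes the median was 0.02, and 20 rose and 7 fell. At so low a share, 0 calls in a short list, here or among the cell markers below, does not set its genes apart. Cyp1a2, an AhR target of hepatocytes, had a trend of 0.49 with an adjusted p of 0.018 but a fold of 1.41, under the call's limit. The sex-biased lists had medians of 0.08 for 14 female-biased genes and -0.31 for 17 male-biased genes at 1200 ppm. Among the female-biased genes Cyp2b13 was called at 1200 ppm, and Cyp2b13 and Cyp17a1, a steroid hydroxylase, in the trend (0.99 and 0.81), and 0 male-biased genes were called. The mean level of the male-biased list was nevertheless 9.975 to 10.15 at 1200 ppm against 10.47 to 10.57 in controls, and every mouse at 1200 ppm lay below every other mouse, the next lowest being 10.19 at 800 ppm. The trend calls of Cyp2b13 and Cyp17a1 were lost without replicate 1 or 3 at 1200 ppm, that of Cyp2b13 also with ACO5, and that of Cyp17a1 also without replicate 3 at 800 ppm or control replicate 2 and with ACO4. Among markers of other liver cells, 0 of 24 Kupffer and macrophage, 0 of 22 endothelial and 0 of 24 stellate and fibroblast genes were called at any dose. Of 11 erythroid genes 0 were called, though 9 lay above 0 at 1200 ppm, with a median of 0.19. This was not particular to 1200 ppm, as the medians were 0.24, 0.07, 0.29 and 0.25 at 25, 75, 300 and 800 ppm. The erythroid marker Alas2 was 957.3 to 1837 at 1200 ppm against 550.6 to 884.5 in controls, without overlap. Its highest signal on the 26 arrays, 1934, was at a lower concentration. The other erythroid marker, Hba-a1, overlapped the controls. In whole liver, fewer cells of a type and less RNA per cell cannot be told apart.

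At 300 ppm the calls were of another kind. They were on dim probe sets in 25 of 44 cases, and 0 of the 12 named ones held in every alternative. Muc1, an epithelial mucin of bile ducts, was called at a log2 change of 1.43 (adjusted p = 0.025) with signals of 414.2, 19.44, 15.6 and 38.68 at 300 ppm against 9.42, 18.73, 7.28, 6.2 and 7.45 in controls. Ctrb1, a pancreatic chymotrypsinogen, was called at 1.55 (adjusted p = 0.018) with 458.4, 81.93, 10.65 and 11.23 against 6.58 to 12.41. Both calls were thus led by replicate 1 of that dose and were lost without it; they were also lost without control replicate 3 or 4, and that of Ctrb1 without replicate 2. With ACO5 or quantile normalisation neither passed, and with ACO4 Muc1 did not. Replicate 1 also had the highest bile duct list level, 7.757, in a 300 ppm group of 7.019 to 7.757 against 6.595 to 7.095 in controls. The pancreas list level was 6.536 to 6.765 at 300 ppm against 5.979 to 6.46 in controls. Of the 17 measured bile duct genes Muc1 was the only one called at 300 ppm, and the list's median was 0.43 there and 0.12 at 1200 ppm. Over all 18193 genes 21 rose and 4 fell at 300 ppm, and the median was 0.08 there and 0.02 at 1200 ppm. The part of bile duct or pancreas RNA in the 300 ppm calls was not tested.

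The 300 ppm call with the largest fold, Akr7a5 (an aldehyde reductase) at 2.03, came from a dim probe set with a control mean of 4.83, while the gene's other probe sets, with control means of 7758 and 11350, changed by 0.11 and -0.02. Its call was lost with ACO4, with ACO5 and after quantile normalisation. Of the calls on bright probe sets, Vamp3, a vesicle fusion protein, gave 615.9, 499.3, 673.9 and 562.6 at 300 ppm against 891, 1049, 979.9, 782.8 and 860.1 in controls, without overlap (log2 change -0.62 ± 0.12, adjusted p = 0.017). Its call was lost with ACO4, with ACO5 and with the 3 control sets pooled, with the higher pseudocount, and without replicate 2 of that dose or control replicate 2 or 3. The other 4 Vamp3 probe sets gave -0.31 to 0.04 and were not called. Otof, a calcium sensor of membrane fusion, was called at both 25 ppm (1.55) and 300 ppm (1.43), where its control arrays were 84.47, 121, 73.92, 2.25 and 68.9. All 4 arrays at 25 ppm (164.2 to 291.8) and all 4 at 300 ppm (153.3 to 276.6) lay above the controls. Both calls were lost with ACO4, with ACO5 and with the 3 control sets pooled, and without control replicate 3 or 4, among others. At 25 ppm Prdm4, a zinc finger regulator, was the 1 lower call, with 186.3, 75.15, 118.3 and 33.28 against 280.8, 220.8, 285.1, 176.4 and 269.3 in controls (-1.28 ± 0.22, adjusted p = 0.0022). Replicate 1 of that dose overlapped the controls, and the call was lost without replicate 4.

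The air control set ACO5 differed from ACO3 and from ACO4 by more called probe sets than any PGBE concentration did from ACO3. Compared singly, in a comparison added after the data were seen, ACO3 against ACO5 gave 74 called probe sets by limma (0.164%; 72 higher and 2 lower in ACO3), ACO4 against ACO5 gave 129 (0.286%; 121 higher and 8 lower in ACO4), and ACO3 against ACO4 gave 0 (0%), with 2231 passing 0.05 unadjusted. ACO3 against the mean of ACO4 and ACO5 gave 0 (0%), with 2104 passing 0.05 unadjusted, and 3 once control replicate 5 of ACO3 was left out. In such a mean a difference from only 1 of the sets is diluted. With ACO4 in place of ACO3, the counts from 25 to 1200 ppm were 13, 1, 125, 14 and 77, and with ACO5 they were 322, 85, 180, 264 and 151. Of 94 named calls at single doses or in the trend, 52 were kept with ACO4 and 62 with ACO5, and 0 turned their sign in any alternative. The largest rises and falls were named only where every array of the dose lay on 1 side of the control mean. For the trend this was asked of the 1200 ppm arrays. A turned sign was thus unlikely from the start and its absence is no test of these calls. In total 15 of the 94 held in every alternative tried: 11 of 34 in the trend, 3 of 32 at 1200 ppm, 1 of 7 at 800 ppm, 0 of 12 at 300 ppm and 0 of 9 at 25 ppm. The 15 include the 1200 ppm and trend calls of probe set 1423556_at, which was added after its values were seen. Its 800 ppm call is not among the 94.

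A comparison without any control array was made between PGBE at 1200 ppm and vanadium pentoxide at 2 mg/m3, an inhaled metal oxide given over the same weeks in the same run to 4 female mice of the same age. It called 33 probe sets (0.0733%), 26 higher and 7 lower with PGBE. The count became 14, 186 and 21 without replicates 1, 2 and 3 of PGBE at 1200 ppm and 13 without replicate 2 of vanadium pentoxide, and 1 vanadium pentoxide array was rescaled to the common trimmed mean first. Among the genes above, Cyp2c55 was higher with PGBE by 2.93 (adjusted p = 4e-10), probe set 1423556_at by 3.27, Pnliprp1 by 2.23, 1810053B23Rik by 2.04, 1700067K01Rik by 1.53, Gna14 by 1.31, Cyp2b13 by 1.30, Ces2a by 1.06 and Cyp2c54 by 0.79, all called. Serpinb1a was called too, with an adjusted p of 0.00013. These genes had been named for high values on the same PGBE arrays at 1200 ppm. Their calls here are therefore not independent of that choice. Sult2a2 differed by 2.26 with an adjusted p of 0.35. The cholesterol genes Fdft1, Msmo1, Nsdhl and Tm7sf2 differed by 0.63 to 0.70 with adjusted p-values from 0.15 to 0.37, and Qpct, Fam25c and Rdh9 by -0.77 to -0.57 with adjusted p-values of 0.18 to 0.28. Those 7 genes and Sult2a2 were therefore not shown to differ between the inhaled chemicals.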

How the data were processed

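Livers of 26 mice were measured as single-channel arrays. The deposited values are signal intensity per probe set on a linear scale, made by the authors with GCOS 1.0 per the submitters' processing notes; further steps are not given in the sources used here. In the deposited intensity values every array of the run but 1 had a mean of 500 after trimming 2% at each end, and that array, with vanadium pentoxide, was rescaled from 148.4. Precision is limited by 4 or 5 mice per group.

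Values were log2(signal + 18.46), where 18.46 is the median over the run of each array's 20th percentile. limma 3.58.1 in R 4.3.3 fitted 1 mean per group over all 134 arrays and 32 groups of the run, with Benjamini-Hochberg adjustment over 45037 probe sets; 64 control probe sets were left out. The calls asked for an adjusted p under 0.05 and a fold of at least 1.5. Of the probe sets, 34945 had 1 gene symbol, 932 several and 9160 none; 9010 of 18193 genes had over 1 probe set, and the brightest stood for the gene in list counts. A fold understates the change of dim probe sets. The code was tested on simulated data. Alternatives covered normalisation, pseudocount, dim probe sets, arrays in the fit, covariates, control set, dose scale and each array left out.

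The text names up to 8 largest rises and falls per comparison with every dosed array on 1 side of the control mean, up to 4 called members per list, and 27 measured sentinel genes. The members, lists and tests were chosen with earlier results of these data known. Replicate numbers follow accession order and only name arrays.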

Additional observations from a re-analysis of the deposited data

Results flagged for a closer look

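For 32 genes or probe sets shown by array, each of the 6 groups was searched for a mouse far from the others of its group, and 12 of 192 groups had one. Chance flags about 1 in 20 groups. The causes were not tested.

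Replicate 4 at 300 ppm was far above the other mice of its group for Apoa4 (15500, next 10400), Tm7sf2 (14200, next 8590) and Gstm3 (8230, next 5430), and it was the array least like its group. Otof was far below its group in 1 control mouse (2.25, next 68.9) and in 1 mouse at 75 ppm (80.2, next 151), and far above it in 1 mouse at 800 ppm (292, next 150). Qpct was low in replicate 2 at 75 ppm (410, next 592) and in replicate 1 at 1200 ppm (201, next 351), the array whose removal ends the Qpct calls. Prdm4 was high in replicate 2 at 300 ppm (284, next 159), 1700067K01Rik low in replicate 4 at 25 ppm (111, next 195), 1810053B23Rik high in replicate 1 at 75 ppm (18.1, next 7.02), and Cyp3a11 low in control replicate 5 (39900, next 55000).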

How the results depend on the processing

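Of 94 named calls, 0 changed sign in any alternative, which the naming rule made likely from the start. Quantile normalisation kept 64, a pseudocount 4 times lower 82, 4 times higher 82, leaving out dim probe sets 78 of 80, the Gapdh 3 prime to 5 prime ratio as covariate 93, the letter r as covariate 92, the fit of the PGBE and control arrays alone 20, and each dose and its controls fitted by themselves 5 of 60. ACO4 kept 52, ACO5 62 and the 3 control sets pooled 78. Counts of called probe sets moved more, and the causes were not tested unless the setting itself leaves out arrays or probe sets. In order of concentration, quantile normalisation gave 2 at 25 ppm, 5 at 300 ppm and 5 at 800 ppm; the lower pseudocount 6 at 25 ppm; the higher pseudocount 91 at 300 ppm and 6 at 800 ppm; and dim probe sets left out 2, 29 and 8 at 25, 300 and 800 ppm and 51 against vanadium pentoxide. The fit of these arrays alone gave 1, 0, 3 and 7 at 25, 300, 800 and 1200 ppm, 18 in the trend, 14 in the trend within dosed mice, 6 in the F test and 11 against vanadium pentoxide. Each dose and its controls fitted by themselves gave 0, 5, 6 and 3 at 25, 300, 800 and 1200 ppm. With the letter r as covariate the counts were 23, 207 and 246 at 25, 300 and 1200 ppm, 118 in the trend, 174 in the F test and 227 against vanadium pentoxide.

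With control set ACO4 the counts were 1, 125 and 77 at 75, 300 and 1200 ppm. With ACO5 they were 322, 85, 180, 264 and 151 from 25 to 1200 ppm, 102 in the trend and 342 in the F test. With the 3 sets pooled they were 56, 2, 251, 38 and 120, 78 in the trend and 249 in the F test. Single comparisons of the control sets, added after seeing the data, called 74 for ACO3 against ACO5 and 129 for ACO4 against ACO5, against 0 for ACO3 and the mean of both. With dose in ppm the trend called 77. Leaving out arrays with the letter r, chosen after seeing the data, leaves 1 array at 1200 ppm, assumed to vary like the other groups, and gave 44, 45, 328 and 2553 at 25, 75, 300 and 1200 ppm, 2446 in the trend, 901 within dosed mice and 1784 in the F test.

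Leaving out 1 array at a time gave 1 to 51 calls at 25 ppm, 0 to 2 at 75 ppm, 4 to 215 at 300 ppm, 4 to 19 at 800 ppm, 18 to 144 at 1200 ppm, 28 to 141 in the trend, 27 to 71 in the trend within dosed mice, 66 to 125 in the F test, 0 to 3 between air control sets and 13 to 186 against vanadium pentoxide. No paired analysis was possible because the replicate numbers follow accession order and pair no mice. Signal near background limits what can be said of dim probe sets.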
